A study of Homo sapiens with 6 samples.

Results

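The genes described here are the protein-coding splicing regulators whose symbols begin with SRSF, HNRNP or RBM, in SEM cells that express wild-type CTCF or CTCF without its RNA-binding region (RBR). They were chosen by symbol and biotype alone, without *RBMX* and *RBMY* and their relatives, and no measured value entered the choice. The rule found 76 of the 57820 genes of the count table. Of these, 11 belong to the SRSF family, 23 to the HNRNP family and 42 to the RBM family. SEM, labeled as B-ALL from blood, is an established line of human B-cell acute lymphoblastic leukemia. Total RNA was sequenced in 3 libraries labeled CTCF_WT (CTCF-WT) and 3 labeled CTCF_RBR (CTCF-dRBR), and the comparison asks what the loss of the RBR changes in transcript levels. All 6 libraries carry miniAID and mClover3 on the endogenous CTCF, which the methods of the study describe as degraded by 5-Ph-IAA through OsTIR1 F74G before doxycycline induced HA-tagged CTCF from a transgene, wild-type or lacking the RBR. The genotype label names TRE3G-HA-CTCF-dRBR for CTCF-dRBR and no transgene for CTCF-WT, so the group was taken from the sample titles, and all 6 titles share the tag C27. The sources used here do not say whether the libraries of a group came from separate cultures, so p-values measure the spread between libraries, which may be technical.

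SR proteins (SRSF) carry an RNA recognition motif and a domain rich in arginine and serine, bind exonic enhancers and recruit U1 snRNP and U2AF to splice sites. Heterogeneous nuclear ribonucleoproteins (HNRNP) coat nascent transcripts, and many of them bind exonic or intronic silencers, so that the balance of both families sets which exons are kept. The RBM proteins are a mixed class that shares RNA recognition motifs. Some are spliceosome components (*RBM17*, *RBM22*, *RBM25*, *RBM42*), *RBM8A* is the Y14 subunit of the exon junction complex, *RBM15* and *RBM15B* serve the m6A writer, and others act in ribosome biogenesis or mRNA stability. Many SRSF and HNRNP transcripts contain poison exons, through which the proteins limit their own mRNA by nonsense-mediated decay.

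Of the 76 genes, 68 reached 1 CPM (counts scaled to library size, here with TMM factors) in at least 1 library and were tested, with 10 from the SRSF family, 22 from the HNRNP family and 36 from the RBM family. The other 8 were near the floor of detection. *SRSF12* had between 0 and 10 estimated reads in a library, *HNRNPCL1* between 0 and 6.03, *RBM11* between 7 and 17, *RBM12B-AS1* between 1 and 6, *RBM20* between 1 and 11, *RBM24* between 0 and 1, *RBM46* between 0 and 6, and *RBM47* between 1 and 11. A count of 0 allows up to 3 reads, which is between 0.0564 and 0.0999 CPM, and this limit covers counting error alone.

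Library totals were between 30034505 and 53166735 estimated reads, with the lowest in CTCF-dRBR replicate 1. That library also stood apart from the others. On the first principal component, which held 81.7% of the variance, it lay at 76.5 and the other 5 between -38.9 and 14.6. Its deviations from the mean of the libraries fell with the GC content of a gene (Spearman's rho -0.79 over all genes tested, as a description across genes). The same measure was 0.72, 0.68 and 0.33 in CTCF-WT replicates 1 to 3, and -0.45 and 0.51 in CTCF-dRBR replicates 2 and 3. Results are therefore given both with and without CTCF-dRBR replicate 1, and after removal of the GC trend from each library. Leaving out that replicate alone does not remove the GC trend. *CTCF* itself had 210, 211 and 249 CPM in CTCF-WT and 273, 264 and 252 CPM in CTCF-dRBR, counts that add the endogenous and the induced transcript and so do not check the deletion. All 7 B-lineage markers examined were expressed. The T cell, erythroid, epithelial and fibroblast markers, summed for each cell type on its own, reached at most 0.838 TPM in a library. *LYZ*, *MPO* and *CD14* together reached at most 8.40.

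None of the 68 genes passed an adjusted p of 0.05 in limma-voom (adjustment by Benjamini-Hochberg over 14044 genes), and 0% of all genes tested passed. At an unadjusted p under 0.05 in limma-voom, 5 members were higher in CTCF-dRBR and 15 lower, against 12.6% and 12.8% of all genes. The edgeR quasi-likelihood test also passed 0 members, with 19 at an unadjusted p under 0.05 (27.9%), beside 24.7% of all genes in that test. Of these members 14 were lower and 5 higher, and of all 14044 genes 1545 were lower and 1917 higher. In 8 members every CTCF-dRBR library lay above every CTCF-WT library, and in 19 every one lay below. Over all genes tested, 20% were separated upward and 17.5% downward, so the upward share of the members was below the background and the downward share above it. By family, 10 of 22 HNRNP genes were separated downward and 1 upward. For SRSF the counts were 2 and 1 of 10, and for RBM 7 and 6 of 36. Differences were small, since 2 of 68 members exceeded 2-fold in either direction against 7.75% of all genes. Single values of 3 libraries against 3 cannot fall below p = 0.1 in an exact permutation test. The median log2 fold change was 0.01 in the SRSF family, -0.22 in the HNRNP family and 0.09 in the RBM family, beside -0.0076 over all genes tested.

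Without CTCF-dRBR replicate 1, the 3 HNRNP genes *HNRNPA3*, *HNRNPAB* and *HNRNPUL2* were lower in CTCF-dRBR at an adjusted p under 0.05 in limma-voom, against 2.37% of all genes, and 0 members were higher, against 1.52%. With all 6 libraries and the GC trend removed, 11 of 66 members with a GC value were lower, against 5.78% of all genes, and 0 were higher, against 4.01%. These 11 were *HNRNPA1L2*, *HNRNPA2B1*, *HNRNPA3*, *HNRNPC*, *HNRNPR*, *HNRNPUL2*, *RBM3*, *RBM28*, *SRSF1*, *SRSF6* and *SRSF11*. In that fit 0 members passed when CTCF-WT replicate 1, CTCF-WT replicate 2, CTCF-dRBR replicate 2 or CTCF-dRBR replicate 3 was left out, and 9 passed without CTCF-WT replicate 3. After both steps, GC removal and omission of CTCF-dRBR replicate 1, 26 were lower, against 14% of all genes, and 3 were higher (*HNRNPLL*, *RBMS1* and *SRSF2*), against 10.5%. DESeq2 on all 6 libraries passed 8 members lower and 3 higher, against 6.14% and 5.38% of all genes. All 11 genes that passed with the GC trend removed were among the 29 that passed without the replicate as well, and 4 of the 11 were among the 11 that DESeq2 passed.

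**Figure D1:**
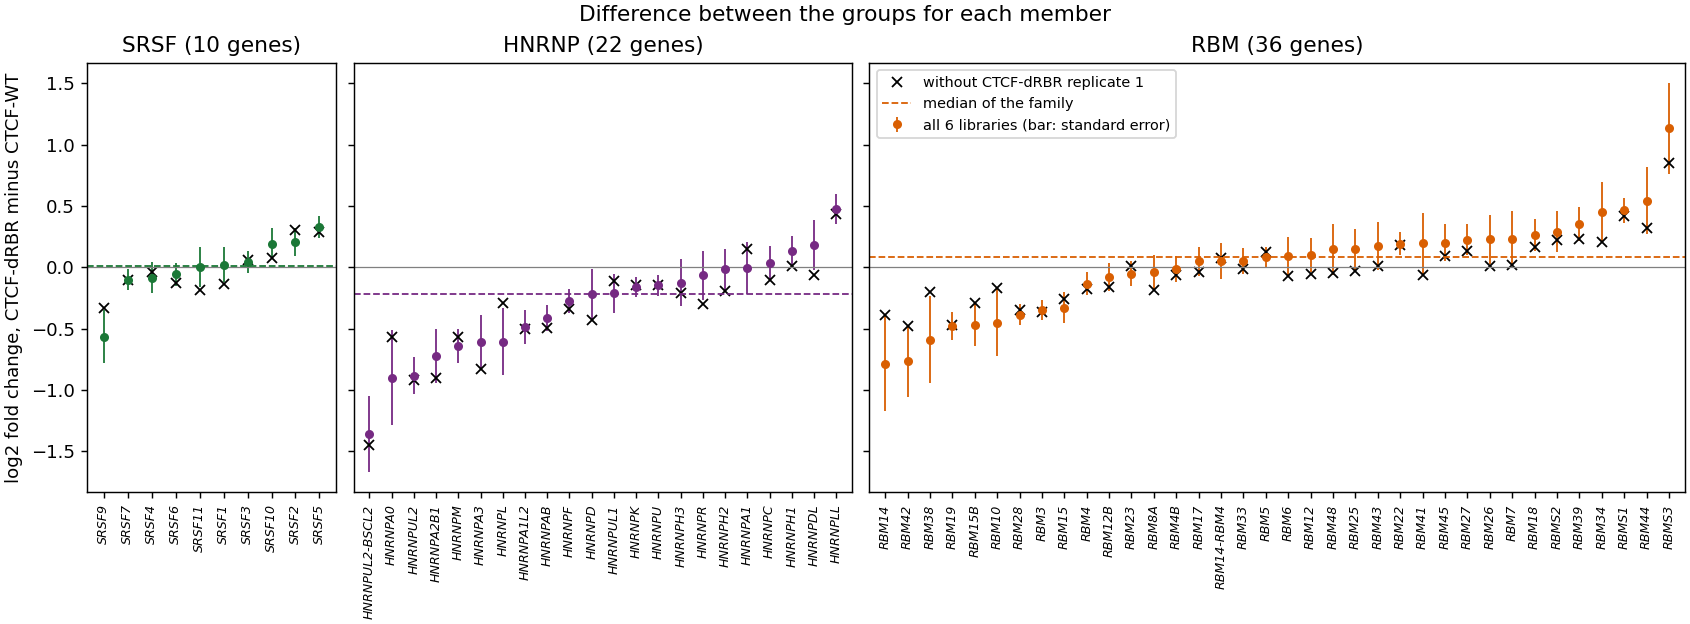
The log2 fold change of each member tested (vertical axis, CTCF-dRBR minus CTCF-WT; filled points with standard error bars from limma-voom) is sorted within each family, with crosses for the fit without CTCF-dRBR replicate 1 and a dashed line at the family median. The HNRNP points lie mostly below 0 (18 of 22), while 22 of 36 RBM and 6 of 10 SRSF points lie above 0.

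Levels per gene length are given as TPM rescaled to one total over protein-coding genes, because small RNAs took a different share of each library. In CTCF-WT the highest HNRNP level was that of *HNRNPA1*, an RNA-packaging protein that also blocks splice sites, at 1690 ± 368 TPM (SD, n = 3). *HNRNPC*, which binds uridine tracts, followed at 1296 ± 113, and *HNRNPH1*, which binds runs of guanine, at 1241 ± 54.0. These first 3 neighbors did not differ beyond their spread. *HNRNPK*, a KH-domain protein that binds cytosine-rich RNA, was next at 749 ± 69.6. In the SRSF family the order began with *SRSF1* (545 ± 31.4), a founding splicing activator, and *SRSF2* (422 ± 29.6), followed by *SRSF5* (352 ± 24.3) and *SRSF10* (332 ± 32.5), of which the last pair overlapped. Among RBM genes *RBM3*, a cold-inducible protein, led CTCF-WT at 538 ± 59.2, ahead of *RBM39*, a partner of U2AF, at 484 ± 119, with overlapping libraries. In CTCF-dRBR this order was the other way round, with *RBM39* at 761 ± 151 and *RBM3* at 399 ± 12.2. *RBM5* (219 ± 13.3) and *RBM8A* (190 ± 12.8) came next in CTCF-WT. At the low end, *RBMS3* had 0.404 ± 0.180 TPM in CTCF-WT.

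**Figure D2:**
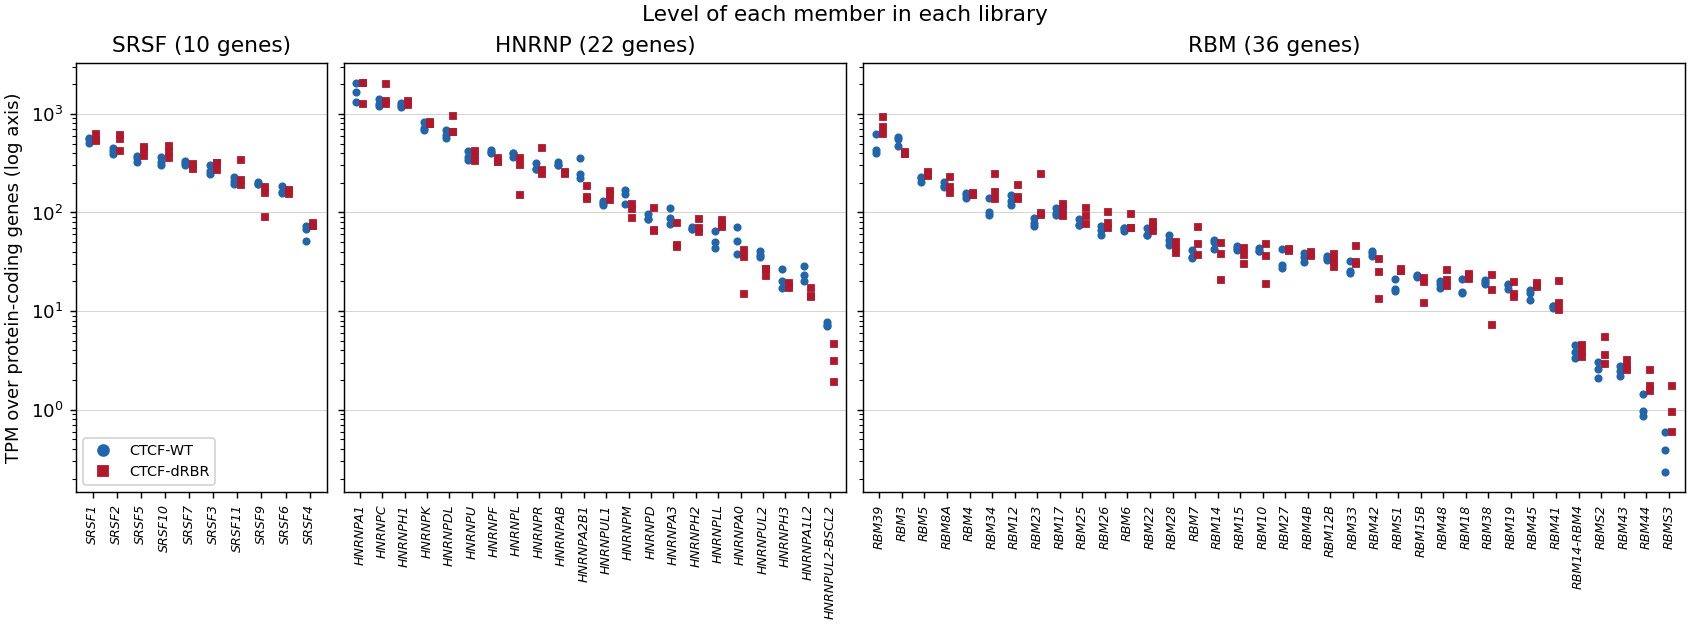
Each panel gives the TPM over protein-coding genes (log axis) of the members of 1 family in the 3 CTCF-WT libraries (circles) and the 3 CTCF-dRBR libraries (squares), ordered by the mean over all 6. HNRNP genes reach the highest levels, led by *HNRNPA1*, *HNRNPC* and *HNRNPH1*, and the 2 groups cover much the same range at most genes.

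In the SRSF family the differences were small and went both ways. *SRSF5*, whose transcripts are known to respond to growth and stress signals, had 262, 233 and 255 CPM in CTCF-WT and 331, 306 and 304 in CTCF-dRBR. The groups were apart, with CTCF-dRBR on the higher side. Its log2 fold change was 0.33 (SE 0.09, limma-voom adjusted p = 0.140), 0.20 with the GC trend removed and 0.28 without CTCF-dRBR replicate 1. *SRSF9*, a short relative of SRSF1, went the other way, with 138, 142 and 126 CPM in CTCF-WT and 63.7, 100.0 and 116 in CTCF-dRBR. The groups did not overlap, but replicate 1 of CTCF-dRBR was far below the rest, and the log2 fold change of -0.56 (SE 0.22, limma-voom adjusted p = 0.184) was -0.34 without it. *SRSF7*, which couples splicing to polyadenylation and export, had 302, 287 and 269 CPM in CTCF-WT and 267, 269 and 263 in CTCF-dRBR, separated by a small margin (log2 fold change -0.10, SE 0.08, limma-voom adjusted p = 0.415, and -0.35 with the GC trend removed). *SRSF1* had 761, 795 and 797 CPM in CTCF-WT, within the range of 984, 715 and 717 in CTCF-dRBR. Its log2 fold change of 0.02 turned to -0.14 without replicate 1 and to -0.28 (adjusted p = 0.0470) with the GC trend removed. *SRSF2*, an activator mutated in myeloid malignancy, had 459, 481 and 493 CPM in CTCF-WT and 479, 589 and 592 in CTCF-dRBR. Here replicate 1 lay among the CTCF-WT libraries and the other 2 above them, with a log2 fold change of 0.21 that was 0.30 without replicate 1 (limma-voom adjusted p = 0.0693). *SRSF10*, a splicing repressor activated by dephosphorylation, had 408, 414 and 443 CPM in CTCF-WT and 563, 470 and 423 in CTCF-dRBR, which overlapped (log2 fold change 0.19, and -0.16 with the GC trend removed).

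Most HNRNP genes had lower CPM in CTCF-dRBR, although none passed an adjusted p of 0.05 in limma-voom with all 6 libraries. In each CTCF-dRBR library the median HNRNP gene was below its CTCF-WT mean, at -0.19, -0.33 and -0.25 on the log2 scale in replicates 1 to 3. The CTCF-WT libraries were at 0.08, -0.03 and -0.05, so the groups of medians did not overlap. Of the 22 genes, 18 had a negative log2 fold change, 8 of them at an unadjusted p under 0.05 in limma-voom, and 1 (*HNRNPLL*) was higher at that level. Over all genes tested, 7112 of 14044 had a negative log2 fold change, and 12.8% were lower and 12.6% higher at that level. The 8 genes include *HNRNPUL2* and its readthrough entry *HNRNPUL2-BSCL2*, which share reads and are not separate observations. The family median was -0.22 with all libraries, -0.39 with the GC trend removed and -0.30 without CTCF-dRBR replicate 1. It stayed negative under each of the 29 alternatives, but the split of 18 lower and 4 higher genes became 12 and 10 when TPM were compared by limma-trend. The levels summed over the 22 genes overlapped between the groups. In TPM over protein-coding genes these sums were 8709, 7768 and 8648 in CTCF-WT and 8733, 8456 and 8414 in CTCF-dRBR. In CPM they were 9209, 8111 and 8370 in CTCF-WT and 8506, 7638 and 7741 in CTCF-dRBR.

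*HNRNPUL2* (chromosome 11, 62480102 to 62494929, minus strand, GRCh37), a relative of the scaffold protein hnRNP U with a part in DNA end resection, had the smallest p of all 68 members. It had 123, 97.7 and 86.4 CPM in CTCF-WT and 58.0, 52.8 and 54.4 in CTCF-dRBR. Every CTCF-dRBR library, replicate 1 included, was below every CTCF-WT library. The log2 fold change was -0.88 (SE 0.15, limma-voom adjusted p = 0.0959) and -0.92 (adjusted p = 0.0426) without CTCF-dRBR replicate 1. The readthrough entry *HNRNPUL2-BSCL2* shares reads with it and is uncertain for that reason. It went from 19.4, 20.03 and 17.5 CPM to 8.35, 4.44 and 10.9 CPM (log2 fold change -1.36, SE 0.31, and -0.90 with the GC trend removed). *HNRNPU* itself, which organizes chromatin-associated RNA, had 778, 694 and 741 CPM in CTCF-WT and 659, 676 and 661 in CTCF-dRBR, without overlap but with a log2 fold change of -0.15, which was -0.49 with the GC trend removed. *HNRNPUL1*, of the same group, had overlapping libraries, with 228, 202 and 190 CPM in CTCF-WT and 152, 167 and 220 in CTCF-dRBR.

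In the hnRNP A/B group, 4 of 6 genes had an unadjusted p under 0.05 in limma-voom, all lower in CTCF-dRBR. Over all genes tested, 12.8% were lower at that level. The median log2 fold change of the group was -0.55. The 4 genes were *HNRNPA2B1*, *HNRNPA3*, *HNRNPAB* and *HNRNPA1L2* (log2 fold change -0.49). How reads were split between *HNRNPA1L2* and *HNRNPA1* was not tested. *HNRNPA2B1*, a reader of RNA sorting signals and a packaging protein, had 405, 292 and 260 CPM in CTCF-WT and 245, 174 and 163 in CTCF-dRBR. The CTCF-WT libraries were spread widely, and the highest CTCF-dRBR library was replicate 1, just under the lowest CTCF-WT library. Its log2 fold change was -0.72 (SE 0.22, limma-voom adjusted p = 0.151), -0.90 without CTCF-dRBR replicate 1 and -0.999 (adjusted p = 0.0315) with the GC trend removed. *HNRNPA3*, its close relative, had 240, 190 and 170 CPM in CTCF-WT and 178, 118 and 106 in CTCF-dRBR. Replicate 1 lay among the CTCF-WT libraries, and without it the log2 fold change moved from -0.61 to -0.83 (limma-voom adjusted p = 0.0463), and with the GC trend removed to -0.94 (adjusted p = 0.0285). *HNRNPAB* had 328, 304 and 299 CPM in CTCF-WT and 261, 212 and 228 in CTCF-dRBR, for a log2 fold change of -0.41 (SE 0.11, limma-voom adjusted p = 0.136). It was -0.50 (adjusted p = 0.0426) without replicate 1, and -0.05 with the GC trend removed. *HNRNPA0*, which binds AU-rich elements, had 140, 96.2 and 69.2 CPM in CTCF-WT and 29.3, 60.2 and 72.7 in CTCF-dRBR, which overlapped. *HNRNPA1*, the most abundant of the group, overlapped, with 1710, 1089 and 1305 CPM in CTCF-WT and 1062, 1494 and 1499 in CTCF-dRBR (log2 fold change -0.01). Its 75 pseudogene rows held counts equal to 8.56% of its own, and for *HNRNPA3* this share was 3.43%, so how reads were split between copies bears on both values.

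*HNRNPM*, which binds GU-rich introns, had 190, 152 and 149 CPM in CTCF-WT and 92.5, 104 and 116 in CTCF-dRBR. The groups were well apart, with a log2 fold change of -0.64 (SE 0.14, limma-voom adjusted p = 0.112) that was -0.38 (adjusted p = 0.0656) with the GC trend removed and -0.57 (adjusted p = 0.0586) without CTCF-dRBR replicate 1. *HNRNPLL*, the regulator of CD45 exon choice in lymphocytes, had the smallest p of the 4 HNRNP genes with a positive log2 fold change. It had 59.2, 62.5 and 72.8 CPM in CTCF-WT and 94.8, 94.0 and 81.4 in CTCF-dRBR, for a log2 fold change of 0.47 (SE 0.12, limma-voom adjusted p = 0.134). It was 0.43 without replicate 1 and 0.21 (adjusted p = 0.183) with the GC trend removed. Its paralog *HNRNPL* had 332, 324 and 309 CPM in CTCF-WT and 133, 240 and 287 in CTCF-dRBR. Replicate 1 was again far below the others, and the log2 fold change of -0.61 was -0.29 without it and -0.34 with the GC trend removed. *HNRNPK* had 800, 820 and 789 CPM in CTCF-WT and 694, 718 and 742 in CTCF-dRBR, separated but close (log2 fold change -0.16, SE 0.08, limma-voom adjusted p = 0.230, and -0.41 with the GC trend removed). *HNRNPC* and *HNRNPH1* overlapped between the groups, with *HNRNPC* at 1085, 1086 and 1177 CPM in CTCF-WT and 1385, 1055 and 1021 in CTCF-dRBR, and *HNRNPH1* at 974, 881 and 928 against 1187, 952 and 923.

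**Figure D3:**
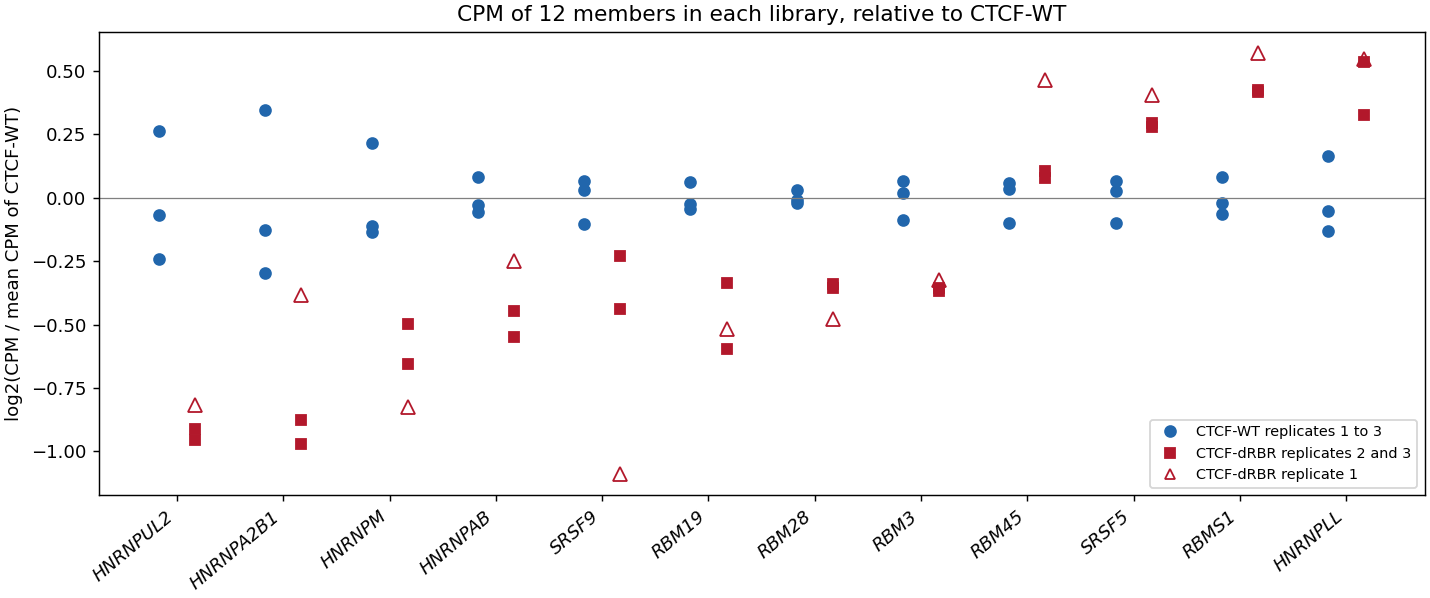
For 12 members the CPM of each library is shown as log2 of its ratio to the mean of the CTCF-WT libraries, with circles for CTCF-WT, filled squares for CTCF-dRBR replicates 2 and 3 and open triangles for CTCF-dRBR replicate 1. In all 12 genes the 2 groups of symbols do not overlap, and the triangle lies far from the squares for *SRSF9*, *HNRNPA2B1* and *RBM45*.

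The RBM family went both ways. Both RBM genes of the m6A writer were lower in all CTCF-dRBR libraries, as were 17.5% of all genes tested. *RBM15* had 98.6, 98.2 and 86.9 CPM in CTCF-WT and 66.5, 72.2 and 86.6 in CTCF-dRBR, where replicate 3 was just below the lowest CTCF-WT library (log2 fold change -0.33, SE 0.13, limma-voom adjusted p = 0.185). *RBM15B* had 101, 101 and 94.7 CPM against 53.4, 76.5 and 85.8 (log2 fold change -0.47, SE 0.18). Without CTCF-dRBR replicate 1 these values were -0.26 and -0.29, and with the GC trend removed *RBM15* was at -0.10. Of the 3 genes that act in ribosome biogenesis, *RBM28* had 79.6, 76.8 and 77.4 CPM in CTCF-WT and 56.0, 60.9 and 61.6 in CTCF-dRBR, with tight libraries in both groups. Its log2 fold change was -0.39 (SE 0.09, limma-voom adjusted p = 0.117), -0.35 without replicate 1 and -0.44 (adjusted p = 0.0219) with the GC trend removed. *RBM19* had 43.7, 40.6 and 41.1 CPM against 29.2, 27.7 and 33.1, also apart, with a log2 fold change of -0.48 (SE 0.11, limma-voom adjusted p = 0.121) that became -0.09 with the GC trend removed. The third, *RBM34*, had 47.9, 46.9 and 57.5 CPM against 102, 62.5 and 54.6, which overlapped. *RBM3* had 492, 509 and 457 CPM in CTCF-WT and 388, 377 and 380 in CTCF-dRBR. The CTCF-dRBR libraries were nearly equal, and the log2 fold change was -0.35 (SE 0.08, limma-voom adjusted p = 0.126) and -0.36 both without replicate 1 and with the GC trend removed.

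The RBMS genes are single-strand binding proteins first described at the *MYC* locus and now known to act on 3' ends and mRNA stability. All 3 were higher in CTCF-dRBR with no overlap between the groups, as were 20% of all genes tested. Of the 3, 2 (*RBMS1* and *RBMS3*) had an unadjusted p under 0.05 in limma-voom. *RBMS1* had 34.7, 33.7 and 37.2 CPM in CTCF-WT and 52.3, 47.3 and 47.0 in CTCF-dRBR (log2 fold change 0.46, SE 0.10, limma-voom adjusted p = 0.114), and 0.42 without CTCF-dRBR replicate 1. *RBMS3* was near the floor, with 0.591, 0.506 and 0.793 CPM against 2.31, 1.24 and 1.03 (log2 fold change 1.13, SE 0.37). *RBMS2* had 3.65, 3.30 and 2.90 CPM against 4.45, 3.90 and 3.74 (log2 fold change 0.29, SE 0.17). With the GC trend removed, the log2 fold changes of these 3 genes were 0.21, 0.86 and 0.24. *RBM39* had 427, 435 and 501 CPM in CTCF-WT and 684, 560 and 508 in CTCF-dRBR, apart by a small margin. Its log2 fold change of 0.35 (SE 0.14, limma-voom adjusted p = 0.186) was 0.23 without replicate 1 and 0.03 with the GC trend removed. Of the 10 spliceosome and exon junction genes in this family, *RBM39* and *RBM22* were separated upward and *RBM42* downward. Over all genes tested, these shares were 20% and 17.5%. *RBM42*, a tri-snRNP protein that binds hnRNP K, had 35.8, 35.1 and 29.1 CPM against 11.8, 20.1 and 28.4, and its log2 fold change of -0.76 (SE 0.29) was -0.48 without replicate 1 and -0.11 with the GC trend removed. *RBM5* (215, 209 and 207 CPM against 206, 226 and 234) and *RBM8A* (149, 144 and 151 CPM against 178, 126 and 135) overlapped.

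*RBM45* (chromosome 2, 178977151 to 179003738, plus strand, GRCh37), a neural RNA-binding protein known to bind m6A-marked RNA, is the member that the study singled out as a CTCF target. It had 15.02, 16.5 and 16.7 CPM in CTCF-WT and 22.2, 17.3 and 16.98 in CTCF-dRBR. The groups did not overlap, but CTCF-dRBR replicates 2 and 3 were just above the highest CTCF-WT library and replicate 1 stood alone. The log2 fold change was 0.20 (SE 0.15, limma-voom adjusted p = 0.365) and 0.09 without replicate 1, and it was -0.08 with the GC trend removed. In TPM over protein-coding genes CTCF-WT had a level of 14.9 ± 1.82 (SD, n = 3) and CTCF-dRBR of 18.4 ± 0.842, position 30 of the 36 RBM genes tested.

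The promoters of some members are shown because CTCF binds DNA by its zinc fingers at a known motif, which can be searched for in their letters. RefSeq promoters on GRCh38.p14 (250 bases before to 50 after the start) matched 69 of the 76 genes, and the others were *HNRNPA1*, *RBM12B*, *RBM12B-AS1*, *RBM39*, *RBM43*, *RBM48* and *SRSF2*. The letters AGGGGGCGC, a common form of the CTCF core, were searched on both strands after the *RBM45* sequence had been read. They occurred in promoters of 5 of these 69 genes (7.25%), beside 2.30% of the 27305 genes with a promoter. *RBM45* is counted among the 5 by that choice, so the share is raised by it. The letters are rich in G and C, and the median GC content was 63.7% over the members' promoters and 58.7% over all promoters. These 5 were *HNRNPL*, *RBM19*, *RBM45*, *SRSF9* and *SRSF12*, and the 4 that were tested are printed with the match in capitals, 5′ to 3′ along the gene. A longer CTCF consensus, searched before the short form, occurred in 11 of the 69 genes (15.9%), beside 12.7% of all genes, and not in *RBM45* or *HNRNPL*. Matches of the longer and the short form overlapped in *SRSF9* only. The windows are chr2:178112187-178112486 (plus strand) for *RBM45*, chr12:120469699-120469998 (minus) for *SRSF9*, chr12:113966276-113966575 (minus) for *RBM19*, and chr19:38852298-38852597 (minus) for *HNRNPL*.
RBM45: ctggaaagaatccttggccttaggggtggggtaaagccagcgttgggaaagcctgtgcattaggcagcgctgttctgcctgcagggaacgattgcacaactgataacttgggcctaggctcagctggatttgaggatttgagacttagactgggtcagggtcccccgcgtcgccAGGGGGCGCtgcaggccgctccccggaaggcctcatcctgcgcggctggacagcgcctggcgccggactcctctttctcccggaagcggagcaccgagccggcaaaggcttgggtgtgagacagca
SRSF9: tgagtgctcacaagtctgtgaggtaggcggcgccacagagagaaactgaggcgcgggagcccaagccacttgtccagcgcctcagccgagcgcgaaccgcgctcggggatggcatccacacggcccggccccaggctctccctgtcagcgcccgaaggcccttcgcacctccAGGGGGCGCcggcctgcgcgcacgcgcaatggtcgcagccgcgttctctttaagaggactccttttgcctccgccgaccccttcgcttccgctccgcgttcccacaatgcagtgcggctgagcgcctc
RBM19: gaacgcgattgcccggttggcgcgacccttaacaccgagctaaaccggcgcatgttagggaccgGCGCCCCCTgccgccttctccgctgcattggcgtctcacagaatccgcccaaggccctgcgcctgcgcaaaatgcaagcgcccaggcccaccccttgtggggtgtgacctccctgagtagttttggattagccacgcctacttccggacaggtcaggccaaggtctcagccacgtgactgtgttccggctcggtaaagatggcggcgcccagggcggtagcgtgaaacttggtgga
HNRNPL: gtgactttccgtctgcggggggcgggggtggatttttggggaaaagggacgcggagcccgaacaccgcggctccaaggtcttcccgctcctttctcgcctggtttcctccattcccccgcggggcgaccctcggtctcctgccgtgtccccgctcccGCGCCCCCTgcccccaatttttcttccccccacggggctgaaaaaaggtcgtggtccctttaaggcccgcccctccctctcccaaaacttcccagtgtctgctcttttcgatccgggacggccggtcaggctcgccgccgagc

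Of these 4 genes, *SRSF9*, *RBM19* and *HNRNPL* were lower and *RBM45* higher in every CTCF-dRBR library, as given above. Over all genes tested, 17.5% were separated downward and 20% upward. With the GC trend removed, *RBM45* changed sign and the differences of *RBM19* and *HNRNPL* became smaller. Whether these letters bear on expression was not tested. *HNRNPUL2*, with the smallest p of the members, held neither form in its promoter. The E-box letters CACGTG occurred in promoters of 7 of 22 HNRNP genes (31.8%), 3 of 37 RBM genes and 0 of 10 SRSF genes, beside 8.77% of all genes, and the ETS letters CCGGAAG in 13 of 69 members (18.8%), beside 12.2%. Some genes have several promoters, and counted by promoter the E-box share was 24.2% in HNRNP (8 of 33), beside 7.26% of all. The median GC content was 66.3% over HNRNP promoters and 58.7% over all promoters. A match is a description of letters and not of binding, which was not analysed here.

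The direction of the members moved with the base composition of their exons. Over the 66 members with a GC value the log2 fold change and the GC content had a Spearman's rho of -0.50, and over all genes tested -0.68, as a description across genes that share the same 6 libraries. Without CTCF-dRBR replicate 1 the rho was -0.32 over the members and -0.48 over all genes tested. By family, with all 6 libraries, the rho was -0.71 in RBM (34 genes), -0.36 in HNRNP (22) and -0.09 in SRSF (10). Of the 22 members with the highest GC content (46.5% to 62.0%), 17 had a negative log2 fold change, 10 of them at an unadjusted p under 0.05 in limma-voom, with a median of -0.37. Of the 22 with the lowest (35.3% to 40.03%), 16 had a positive one, with a median of 0.15. Among the members outside this order were *HNRNPA3*, *HNRNPA2B1* and *HNRNPA0*, at 38.1%, 40.1% and 41.0% GC and log2 fold changes of -0.61, -0.72 and -0.90. With the trend removed, the medians of the lowest, middle and highest 22 were -0.18, -0.20 and -0.09. The medians of the families were then -0.30 for SRSF, -0.39 for HNRNP and -0.08 for RBM. The part of base composition in these differences was not tested.

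**Figure D4:**
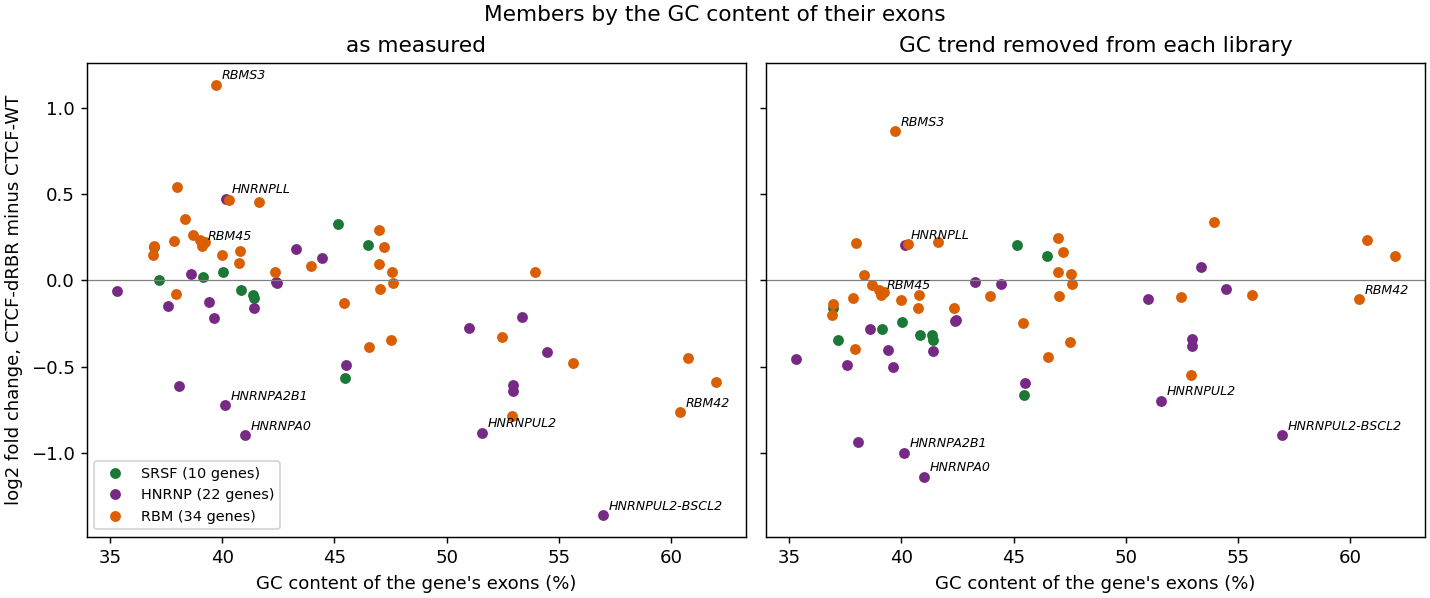
The log2 fold change of each of 66 members (vertical axis, CTCF-dRBR minus CTCF-WT) is plotted against the GC content of its exons in percent, as measured (left) and with the GC trend removed from each library (right), colored by family. On the left the points fall from low to high GC (rho -0.50), and on the right *HNRNPUL2*, *HNRNPA2B1* and *HNRNPA0* stay among the lowest.

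A second measure asked whether the mix of transcripts assigned to a gene differed, which matters for genes that splice their own poison exons. The ratio of expected count to TPM is proportional to the abundance-weighted length of a gene's transcripts, and it was compared for the 57 members with at least 5 TPM in every library, on a scale where the CTCF-WT libraries average 1. None of the 57 passed an adjusted p of 0.05 in limma, and 0% of 6695 genes did. At an unadjusted p under 0.05 in limma, 10 members were longer in CTCF-dRBR and 0 shorter, against 8.74% and 4.57% of all genes. The median log2 difference was 0.09 over the members and 0.07 over all genes, which are close to each other. The 10 included 6 HNRNP genes (*HNRNPA1L2*, *HNRNPA2B1*, *HNRNPA3*, *HNRNPH1*, *HNRNPH3*, *HNRNPL*), 2 SRSF genes (*SRSF5*, *SRSF7*) and 2 RBM genes (*RBM3*, *RBM8A*). For *HNRNPA3* the relative length was 0.943, 0.972 and 1.09 in CTCF-WT and 1.15, 1.32 and 1.19 in CTCF-dRBR. For *HNRNPA2B1* it was 0.930, 0.999 and 1.08 against 1.26, 1.20 and 1.13. Both genes were longer in every CTCF-dRBR library (log2 differences 0.29, SE 0.08, and 0.26, SE 0.08, each with a limma adjusted p of 0.366). In the shorter direction the smallest p values belonged to *HNRNPUL1* (1.05, 1.01 and 0.937 against 0.623, 0.875 and 0.954) and *RBM39* (1.05, 1.05 and 0.907 against 0.871, 0.915 and 0.946), both overlapping. *RBM23*, chosen after its values were seen, showed how 1 library can move this measure. Its relative length was 0.310 in CTCF-dRBR replicate 1 and between 0.940 and 1.02 in the other 5, while its CPM stayed between 76.1 and 92.3 in all 6. Without CTCF-dRBR replicate 1, 58 members were kept, of which 9 were longer and 1 shorter at an unadjusted p under 0.05, against 4.24% and 3.29% of 7030 genes. With the GC trend removed, 7 of 55 members (12.7%) were longer and 0 shorter at that level. Of all 6594 genes in that fit, 412 were longer and 395 shorter (12.2% in both directions together). The 7 members were 6 HNRNP genes, 1 RBM gene and 0 SRSF genes. The median log2 difference in that fit was 0.03 over the members and 0.02 over all genes.

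Splicing genes outside the 3 families were compared for context. Of 11 SR-like proteins and SR kinases tested, 2 were higher in CTCF-dRBR at an unadjusted p under 0.05 in limma-voom and 0 lower. These were the kinases *CLK1* and *CLK4*, which phosphorylate SR proteins. *CLK1* had 139, 148 and 164 CPM in CTCF-WT and 308, 224 and 195 in CTCF-dRBR (log2 fold change 0.67, limma-voom adjusted p = 0.140), and *CLK4* had 43.0, 44.6 and 48.5 against 80.7, 62.7 and 55.3 (log2 fold change 0.51). Neither gene overlapped between the groups, and without CTCF-dRBR replicate 1 the log2 fold changes were 0.48 and 0.37. With the GC trend removed they were 0.36 (limma-voom adjusted p = 0.0246) and 0.18 (adjusted p = 0.0931). Of 27 other RNA-binding splicing regulators, 3 were higher and 7 lower. *MBNL2*, a regulator of developmental exons, had 31.6, 36.3 and 41.3 CPM against 67.1, 55.5 and 48.1, and *PCBP1*, a poly(C)-binding protein, had 47.7, 45.8 and 38.7 against 14.7, 18.5 and 22.2. Of 36 core spliceosome genes, 15 were lower and 1 higher, with a median log2 fold change of -0.39 that was -0.26 with the GC trend removed. Beside these counts, 12.6% of all genes tested were higher and 12.8% lower at an unadjusted p under 0.05 in limma-voom. *PRPF8*, the protein at the catalytic center, had 315, 280 and 259 CPM in CTCF-WT and 114, 145 and 148 in CTCF-dRBR (log2 fold change -1.07, SE 0.14, limma-voom adjusted p = 0.0959). It was -0.96 (adjusted p = 0.0230) without CTCF-dRBR replicate 1. *PRPF19*, a ubiquitin ligase of the active spliceosome, had 114, 110 and 107 CPM against 39.5, 58.1 and 54.1. In *PCBP1*, *PRPF8* and *PRPF19* all CTCF-dRBR libraries were below all CTCF-WT libraries.

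Some values rest on reads that neighbors could share. Of 66 members with coordinates, 31 had an annotated gene on the opposite strand within their bounds and 20 on the same strand. The deposited counts are named as stranded, and the sources used here do not describe the strand setting further. *RBM14-RBM4* shares exons with *RBM14* and *RBM4*. A further 150 rows with the same symbol starts, 145 of them pseudogenes and 5 antisense genes, were left out by biotype. CPM are shares of a library, and in bulk RNA fewer cells that express a gene cannot be told apart from less RNA per cell.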

How the data were processed

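SEM cells gave 6 libraries of total RNA without ribosomal RNA, which the sample titles place in CTCF-WT (3) and CTCF-dRBR (3). The authors trimmed reads with Trim Galore (version 0.6.3), aligned them to hg19 with STAR (version 2.7.9a) and quantified Gencode genes with RSEM (version 1.3.1). The deposited expected counts are estimates that need not be whole. The deposited TPM were divided by effective length by the authors and hold small RNAs, so they were rescaled here over protein-coding genes, whose share of the deposited TPM was 30.2% to 63.2% across libraries. The labels call the reads single-end and the methods paired-end.

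Genes were kept that reached 1 CPM in any library. Factors by TMM came from edgeR (version 4.0.16), and the two-sided comparison used limma-voom (limma 3.58.1 in R 4.3.3), following the methods of the study. Isoform-weighted length was log2(expected count / TPM) minus the library median, tested by limma with a mean trend. GC content and GRCh37 coordinates came from a lifted Gencode annotation matched by Ensembl identifier, and each library's loess trend over GC (span 0.5, degree 2) was removed where stated. Alternatives were DESeq2 (version 1.42.0), edgeR, quality weights, limma-trend on TPM with a pseudocount of 1 or 0.1, other filters and normalizations, the omission of single libraries, and a block for the replicate number. Counts were rounded for edgeR and DESeq2, and the fits were tested on simulated data. The members, gene lists and motifs were chosen with earlier results of these data known. Genes were named by rule, namely *RBM45*, the 4 highest in TPM per family, up to 3 per family and direction with the smallest p among those without overlap, the 2 with the smallest length p per direction, 3 other splicing genes per direction, and role groups.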

Additional observations from a re-analysis of the deposited data

How the results depend on the processing

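The count of 0 members past an adjusted p of 0.05 was kept by all other tests, normalizations and filters except DESeq2 (11), voomWithQualityWeights (45) and the fit with the GC trend removed (11), and by leaving out each library except CTCF-dRBR replicate 1, with a range of 0 to 3. With quality weights the members' share in both directions together, 66.2%, was near that of all genes, 68.2%. The share that was lower in CTCF-dRBR was 42.6% of members and 35.8% of all genes. The edgeR quasi-likelihood test without CTCF-dRBR replicate 1, chosen after seeing the data, gave 3. With the GC trend removed, leaving out single libraries gave 0 to 29 members, with 0 without CTCF-WT replicate 1, CTCF-WT replicate 2, CTCF-dRBR replicate 2 or CTCF-dRBR replicate 3, 9 without CTCF-WT replicate 3 and 29 without CTCF-dRBR replicate 1. The 20 members at an unadjusted p under 0.05 became 48 with quality weights (70.6%, beside 71.4% of all genes), and 11 to 27 when libraries were left out. The 11 came without CTCF-WT replicate 2 (10.6% of all genes) and without CTCF-dRBR replicate 2 (13.4%), 12 without CTCF-WT replicate 1 (10.2%), and the 27 (39.7%) without CTCF-dRBR replicate 3 (41.0%). For length, the 10 members became 2 to 15, the lowest without CTCF-WT replicate 1 (3.87% of all genes) and the highest without CTCF-dRBR replicate 3 (23.1%). The causes were not tested.

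Same-numbered libraries of the groups did not deviate together (correlations -0.51, 0.16 and -0.63), and 0 of 6 libraries correlated best with their own number. These values give no sign of a pairing by number. With 3 libraries per group they cannot show whether same-numbered libraries were prepared together. With the replicate block, 12 members (17.6%) had an unadjusted p under 0.05 for expression, beside 10.1% of all genes, and 4 (7.02%) for length, beside 9.53%, and 0 passed an adjusted p of 0.05 for either. With the GC trend removed and the replicate block together, 0 members and 0 of all genes passed in place of 11 and 1336, 22 members (33.3%) had an unadjusted p under 0.05, beside 21.96% of all genes, and family medians were -0.30 (SRSF), -0.39 (HNRNP) and -0.0773 (RBM).

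The SRSF median was 0.17 under both limma-trend fits on TPM, 0.0845 with library totals only, -0.0793 with no filter, 0.0746 with the length trend removed and -0.30 with the GC trend removed, and -0.0717 to 0.0746 when libraries were left out. The HNRNP median was -0.34 with quality weights, -0.14 with library totals only and -0.39 with the GC trend removed, and -0.30 to -0.16 when libraries were left out. The RBM median was -0.0844 with the GC trend removed and -0.0349 to 0.14 when libraries were left out, negative without CTCF-dRBR replicate 1.

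Directions of single genes reversed as follows. *HNRNPA1* was 0.32 with quality weights, 0.0721 and 0.0722 under the limma-trend fits, 0.0646 with library totals only, 0.0283 with upper quartile, 0.0133 with protein-coding rows only and 0.0472 with the length trend removed, and -0.16 to 0.15 when libraries were left out. With the GC trend removed, 22 of 66 members changed sign, 19 of them to lower, and among the genes named by rule these were *HNRNPC* -0.28, *HNRNPH1* -0.0234, *HNRNPUL1* 0.0779, *RBM45* -0.0832, *RBM5* -0.0926, *SRSF1* -0.28 and *SRSF10* -0.16, and with the replicate block added *HNRNPC* -0.28, *HNRNPH1* -0.0243, *HNRNPUL1* 0.0790, *RBM45* -0.0847, *RBM5* -0.0930, *SRSF1* -0.28 and *SRSF10* -0.16. *HNRNPC* was also -0.0470 with quality weights and -0.0646 with no filter. *HNRNPK* was 0.11 and *HNRNPUL1* 0.27 under both limma-trend fits, *RBM8A* was 0.0357 with library totals only, and *SRSF7* 0.0417 with the length trend removed. *SRSF1* was -0.14 with quality weights, -0.0066 with filterByExpr and -0.0793 with no filter. Leaving out libraries gave *HNRNPC* -0.11 to 0.12, *RBM8A* -0.19 to 0.0594 and *SRSF1* -0.14 to 0.10. With the GC trend removed as well, it gave *HNRNPA1* -0.39 to 0.0420, *HNRNPH1* -0.0688 to 0.0367, *RBM19* -0.29 to 0.0344 and *RBM5* -0.18 to 0.0397.

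The shallowest library had 30034505 reads, and the effect of depth on these counts was not tested.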
